A study of Mus musculus with 4 samples.

Results

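Serpins are a family of proteins that share one fold and, in most members, trap a target protease in a covalent complex that destroys both partners. The family was taken by symbol: every RefSeq mouse gene whose symbol starts with Serpin, apart from Serpinc1, Serpind1 and Serpinf2, which the rule leaves out, and 6 pseudogenes. This gave 60 genes, of which 57 had a probe on the array, out of 22907 named genes with a probe. Serpina16, Serpina3g and Serpinb9h had no matched probe and have no value here. Each gene was read on its brightest probe, and the genes were grouped by clade letter, which left 22 in clade A, 27 in clade B and 8 in clades E to I.

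Clade A holds most of the serpins that hepatocytes secrete into plasma, among them the alpha-1-antitrypsins, which inhibit neutrophil elastase, and carrier proteins that bind hormones and inhibit no protease. Clade B serpins lack a classical signal peptide and mostly act inside cells, where they protect against proteases of granules and lysosomes. The remaining clades include inhibitors of plasminogen activators and of complement, and a chaperone of collagen.

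Livers were taken at mid-gestation from fetuses of C57BL/6J dams whose gestational diet took either 4.3% or 60% of its kcal from fat, called control diet (CD) and high-fat diet (HFD), with 2 arrays for each. The labels carry no genetic change in either group, and diet is the difference they name. They call the arrays biological replicates without saying how many fetuses, dams or litters stand behind each, so p-values here measure the spread between 2 arrays per diet. The series asks which transcripts of the fetal liver differ with the diet of the dam.

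Values are log2 levels of a 1-colour array, with 0 at the 75th percentile of each array, and a level can be compared between arrays but not between genes, since each probe binds with its own strength. Between 65.4% and 70.0% of probes were well above background on an array. Each of 10 hepatoblast markers, among them Alb, Afp, Trf and Apoa2, stood well above background on every array. Of these, 0 passed the test between diets. All 6 kidney and all 6 neuronal markers also stood well above background on every array, so this measure does not tell liver from other tissues. The labels give all 4 samples as female, but the arrays of replicate 1 went against this in both groups. The Y-linked Eif2s3y had a level of 1.45 on CD replicate 1 and 1.84 on HFD replicate 1, and was not well above background on either replicate 2 array, at -6.74 and -6.32. Xist, which marks the inactive X chromosome, was well above background only on the replicate 2 arrays. Each diet thus had 1 array of each kind. The results are therefore given also within each replicate number, where 1 array against 1 allows no test, and with the replicate number as a block.

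Because the findings turn on a cluster of neighbouring Serpinb9 genes, the sequence just before the start of these genes is shown first. Serpinb9 encodes the inhibitor of granzyme B, and Serpinb9b to Serpinb9g are copies of it that arose in rodents. The lines below give the 120 bases before the annotated start of Serpinb9d, Serpinb9e, Serpinb9f and Serpinb9g, then of Serpinb9c and of Serpinb9 itself for contrast, from RefSeq on GRCm38.p6. Capitals mark TGACGT, the letters at the core of a cyclic AMP response element.
Serpinb9d, chr13:33192835-33192954, plus strand: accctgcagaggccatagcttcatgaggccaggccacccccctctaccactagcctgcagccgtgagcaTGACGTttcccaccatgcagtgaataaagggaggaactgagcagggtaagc
Serpinb9e, chr13:33249488-33249607, plus strand: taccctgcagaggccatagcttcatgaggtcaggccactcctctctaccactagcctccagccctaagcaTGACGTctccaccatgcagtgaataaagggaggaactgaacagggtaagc
Serpinb9f, chr13:33323957-33324076, plus strand: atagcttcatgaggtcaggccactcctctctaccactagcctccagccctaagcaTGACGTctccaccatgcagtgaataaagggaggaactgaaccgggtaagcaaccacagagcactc
Serpinb9g, chr13:33484670-33484789, plus strand: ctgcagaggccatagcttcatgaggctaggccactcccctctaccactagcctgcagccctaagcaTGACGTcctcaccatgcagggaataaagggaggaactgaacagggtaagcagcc
Serpinb9c, chr13:33159755-33159874, minus strand: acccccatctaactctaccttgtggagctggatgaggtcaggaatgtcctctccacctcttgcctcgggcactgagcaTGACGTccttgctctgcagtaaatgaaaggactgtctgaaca
Serpinb9, chr13:33004421-33004540, plus strand: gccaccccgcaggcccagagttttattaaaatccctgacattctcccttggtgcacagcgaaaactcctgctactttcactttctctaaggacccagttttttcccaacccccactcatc

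Over the whole 250 bases before the start, Serpinb9d, Serpinb9e, Serpinb9f and Serpinb9g were 80.4% to 92.9% identical to each other in global alignments. The same stretch of Serpinb9 was 43.2% to 45.5% identical to these genes, and that of Serpinb9b 41.6% to 45.4%. Serpinb9c has a pair of annotated starts, and the one shown was 55.7% to 62.8% identical to Serpinb9d to Serpinb9g. TGACGT, searched on both strands, was found once in each of Serpinb9c to Serpinb9g and not in Serpinb9 or Serpinb9b. It ended 44 bases before the start in Serpinb9e, 45 in Serpinb9d, 48 in Serpinb9g, 59 in Serpinb9f and 36 in Serpinb9c. Over all promoters of the same length 6.47% held these letters, and of the 48 serpin genes with a promoter in the table Serpina3b was the only other one. The letters were picked after the windows had been read and with the diet values of these genes known, and the genes are close copies, so the match is a description of the sequence and not a mapped binding site.

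Of the 57 genes, 41 passed the filters on low and variable signal and were tested. Every gene left out was removed as dim, and the filter on variable signal removed only 2 further probes of the whole array. Serpinb9e and Serpinb9f fell in the HFD group past both limits used here, 2-fold and an unadjusted p of 0.05, which is 2 of 41 members tested (4.88%) beside 0.583% of all 18340 genes tested. No member rose past these limits, beside 0.284% of all genes. At an adjusted p of 0.05 limma called 0 members and 0 of all genes (0%), and at an unadjusted p of 0.05 it called the same 2 members (4.88%) beside 2.87% of all genes. The methods' t-test called 0 members past p and fold, beside 0.191% of all genes. The median log2 fold change of the 41 members was -0.01, and that over all genes tested was 0.04. An absolute log2 fold change under 0.5 was seen in 35 of 41 members (85.4%) and in 92.5% of all genes.

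**Figure D1:**
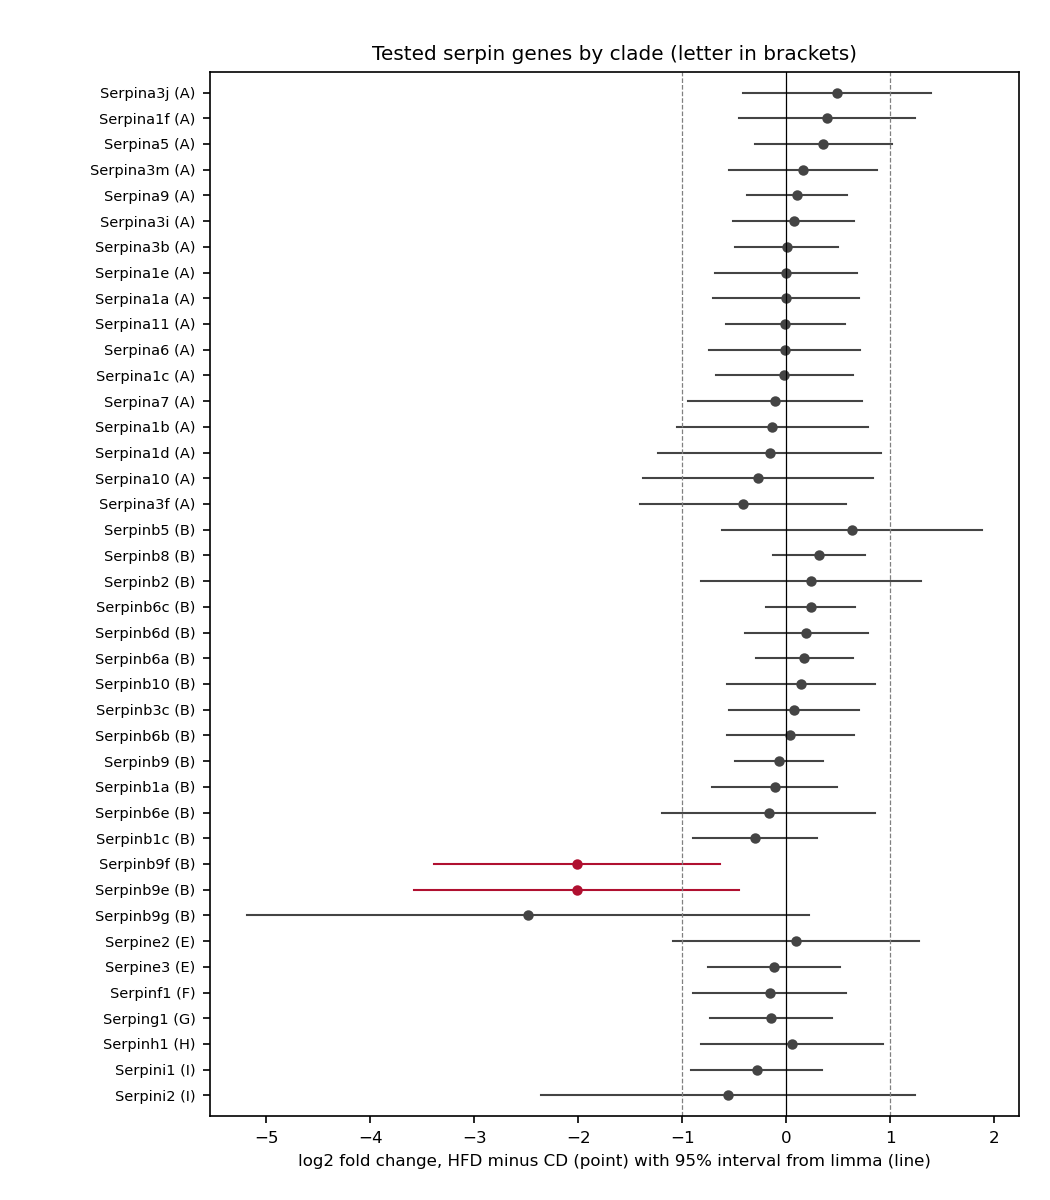
Log2 fold change, HFD minus CD, of 40 of the 41 tested serpin genes (points) with the 95% interval from limma (lines), ordered by clade, with dashed lines at 2-fold. Serpinb9e and Serpinb9f, in red, lie near -2.0 with intervals that stay below 0, Serpinb9g has an interval from -5.19 to 0.22, and the clade A genes all lie within 0.5 of 0.

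Among the Serpinb9 genes, Serpinb9e had log2 levels of -2.48 and -2.19 in CD and -3.53 and -5.18 in HFD. Both HFD arrays lay below both CD arrays, and HFD replicate 2 was the lowest. The log2 fold change was -2.02 (SE 0.58), a 4.04-fold lower signal, with limma's unadjusted p = 0.0223 and adjusted p = 1.00. Serpinb9f followed with -2.57 and -2.12 in CD and -3.67 and -5.05 in HFD. Its log2 fold change was -2.01 (SE 0.51), with limma's unadjusted p = 0.0142 and adjusted p = 1.00. Serpinb9g had -3.48 and -3.03 in CD and -4.27 and -7.21 in HFD, where only HFD replicate 1 was well above background. Its log2 fold change of -2.48 (SE 1.01) had an unadjusted limma p of 0.0639.

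Serpinb9c and Serpinb9d were not tested, because their signal on 1 array, HFD replicate 2, lay under its 20th percentile, so the filter removed genes of the same cluster on the side where they were dim. Serpinb9d was at -5.36 and -5.21 in CD, well above background on both arrays, and at -7.29 and -7.74 in HFD, well above background on neither. Against the lowest level that counts as well above background on each HFD array, Serpinb9d was at least 1.41-fold lower in HFD. Serpinb9c was at -5.60 and -4.35 in CD and at -6.90 and -8.01 in HFD, at least 1.75-fold lower by the same measure. Without the filter on dim probes both joined Serpinb9e and Serpinb9f past p and fold, with HFD signals not well above background, so only these bounds are given.

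The granzyme B inhibitor Serpinb9 itself lay at -0.75 and -0.70 in CD and at -0.77 and -0.80 in HFD. Its HFD values were below both CD values by a small margin, with a log2 fold change of -0.07 and a 95% interval of -0.49 to 0.36. Serpinb9b was well above background on no array. Of the 7 Serpinb9 genes with a probe, Serpinb9c to Serpinb9g lay apart between the diets, with the highest HFD level at least 0.79 log2 units below the lowest CD level. Both HFD arrays lay below both CD arrays, by any margin, in 10.2% of all genes tested. Serpinb9c and Serpinb9d were not tested, and their HFD signals were not well above background. Probe sequences were not among the files used here, and genes this similar may share signal on a probe, so the 5 cannot be counted as independent measurements. The second Serpinb9d probe was well above background on no array.

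Within replicate 1, HFD minus CD was -1.05 log2 units for Serpinb9e, -1.10 for Serpinb9f and -0.79 for Serpinb9g. Within replicate 2 it was -2.99 for Serpinb9e and -2.93 for Serpinb9f, so both differences were larger there. Serpinb9g in replicate 2, and Serpinb9c and Serpinb9d in both, were also lower in HFD, but their HFD signals were not well above background and no size is given. With the replicate number as a block, limma called 3 members lower (Serpinb9e, Serpinb9f and Serpinb9g), beside 0.78% of all genes, and again none at an adjusted p of 0.05. Without either CD array the p of Serpinb9e and Serpinb9f was above 0.05, with fold changes of -2.16 and -2.24 without CD replicate 1 and of -1.87 and -1.79 without CD replicate 2. Without HFD replicate 2, the lowest array, they were -1.19 and -1.32. With normexp background correction they were -1.10 and -1.06.

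Genes of the trophoblast, the placental cells that face the mother, moved with this cluster. Of 16 trophoblast markers, all with a probe and well above background on at least 1 array, 14 had both HFD levels under both CD levels, and 12 of 14 tested fell past p and fold. Gcm1 and Plac1 did not. Tpbpa, a marker of the spongiotrophoblast, had levels of 3.01 and 4.80 in CD and of 1.00 and -1.01 in HFD, a log2 fold change of -3.91 with an unadjusted limma p of 0.0106. Tpbpb, its neighbour and relative, was at 1.24 and 2.78 in CD and at -0.87 and -3.05 in HFD, a log2 fold change of -3.97. HFD replicate 2 was the lowest array for 14 of the 16 markers, as it was for Serpinb9c to Serpinb9g. CD replicate 2 exceeded CD replicate 1 for 14 of the 16, with a median difference over the list of 1.84 log2 units, and it also exceeded CD replicate 1 for Serpinb9c to Serpinb9g, by 1.25 for Serpinb9c, 0.15 for Serpinb9d, 0.29 for Serpinb9e and 0.45 for Serpinb9f and Serpinb9g. The summed linear level of the list ranged from 68.7 to 84.8 in CD and from 47.6 to 49.8 in HFD. Without Gcm1, left out after its values were seen, the sums of the other 15 were 18.5 and 65.4 in CD and 4.36 and 1.36 in HFD. The study picked 11 of these 16 genes on the same arrays, so the list is not independent evidence of its direction. The part of trophoblast RNA in the Serpinb9 result was not tested, and in bulk tissue fewer cells of a type and less RNA per cell cannot be told apart.

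**Figure D2:**
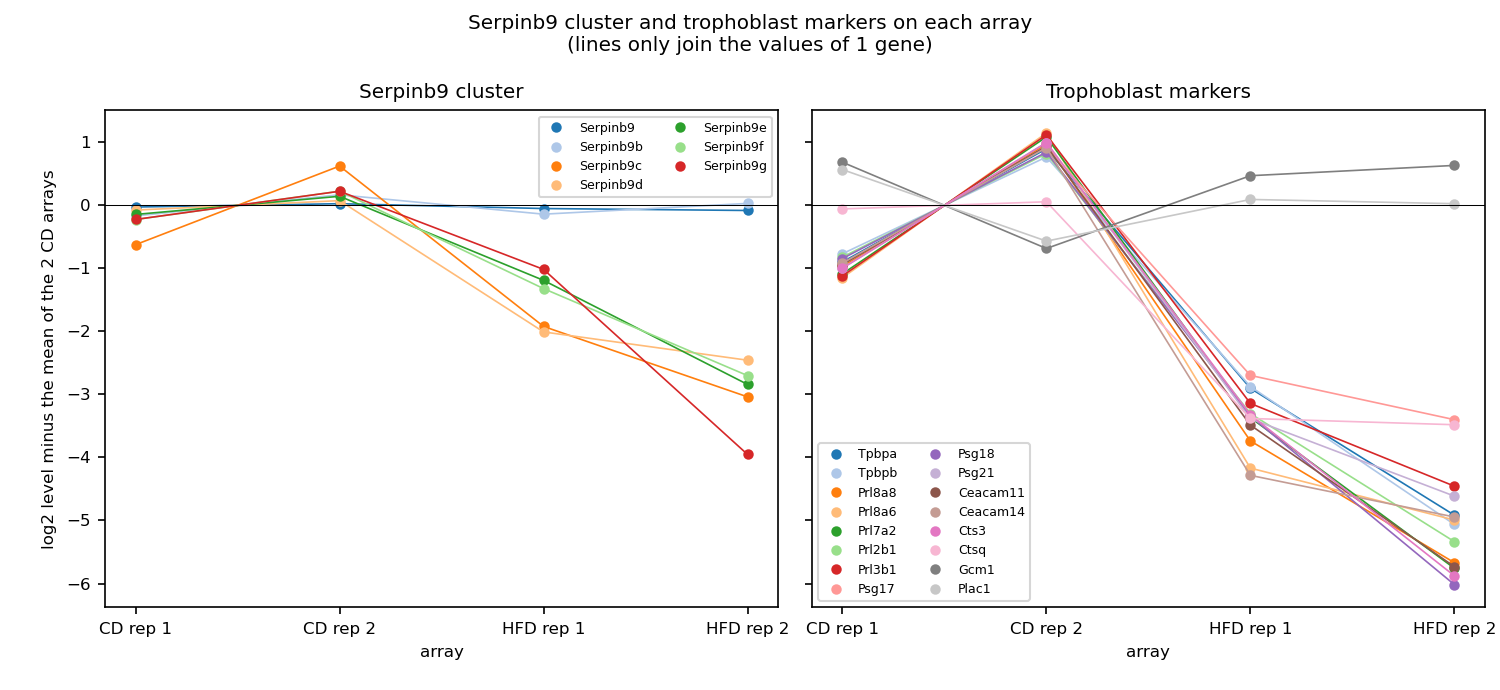
Log2 level of each Serpinb9 gene (left) and each trophoblast marker (right) on the 4 arrays, minus the mean of the 2 CD arrays, where lines only join the values of 1 gene. Serpinb9c to Serpinb9g and 14 of 16 markers lie below 0 on both HFD arrays and lowest on HFD replicate 2, while Serpinb9 lies just under 0 on both HFD arrays and Serpinb9b, Gcm1 and Plac1 do not show the pattern.

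Placental cathepsins, cysteine proteases made in rodent placenta, were on a list of 8 genes, of which 3 were near background throughout (well above it on no array). Cts3 and Ctsm, the pair that could be tested, both fell past p and fold, with log2 fold changes of -4.60 and -3.65. Cts3 and Ctsq were also among the trophoblast markers above, and the study picked Cts3 on these arrays, so the lists are not independent. In contrast, the 5 lysosomal cathepsins of most cells, among them Ctsb, Ctsl, Ctsh and Ctss, had log2 fold changes between 0.01 and 0.21 and 0 passed the test. Of 7 granule proteases, 0 were called. Gzmb, named here as the target of Serpinb9 and not by its signal, lay at -2.82 and -4.71 in CD and at -3.38 and -4.88 in HFD, with a log2 fold change of -0.37, and the groups overlapped.

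The other clade B serpins did not pass the test. Serpinb8, an inhibitor of furin, was the brightest, at 4.66 and 4.79 in CD and at 5.09 and 4.99 in HFD. Both HFD arrays lay above both CD arrays, and the log2 fold change was 0.31 (SE 0.17) with a 95% interval of -0.13 to 0.76. The second Serpinb8 probe was well above background on no array. Serpinb6a, an inhibitor of cathepsin G, was at 3.65 and 3.42 in CD and at 3.70 and 3.72 in HFD, and Serpinb6c was at 3.30 and 3.21 in CD and at 3.49 and 3.49 in HFD. Their log2 fold changes were 0.18 and 0.24, and their HFD arrays lay just above their CD arrays. Members with both HFD arrays above both CD arrays numbered 3 of 41 (7.32%), namely Serpinb6a, Serpinb6c and Serpinb8, beside 22.9% of all genes. Members with both HFD arrays below both CD arrays numbered 5 of 41 (12.2%), among them Serpinb9, Serpinb9e, Serpinb9f and Serpinb9g, beside 10.2% of all genes.

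Over the 5 Serpinb6 genes, all tested, log2 fold changes ran from -0.17 for Serpinb6e, well above background on no array, to 0.24. Serpinb5, or maspin, which does not inhibit proteases, was at -3.32 and -4.51 in CD and at -3.01 and -3.55 in HFD. Its log2 fold change of 0.63 was the highest of the tested members, with a 95% interval of -0.61 to 1.88 and overlapping groups. Without CD replicate 1 it was 1.23 with an unadjusted limma p of 0.0322, and without CD replicate 2 it was 0.04. Serpinb1a, an inhibitor of neutrophil elastase, and Serpinb10, known from blood-forming cells, had log2 fold changes of -0.11 and 0.14. Serpinb2, an inhibitor of urokinase, had a log2 fold change of 0.24 with overlapping groups. In all, 10 of 27 clade B genes were well above background on no array, among them Serpinb3a, Serpinb3b, Serpinb3d, Serpinb11, Serpinb12 and Serpinb13. The median log2 fold change of the 16 clade B genes tested was 0.06.

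**Figure D3:**
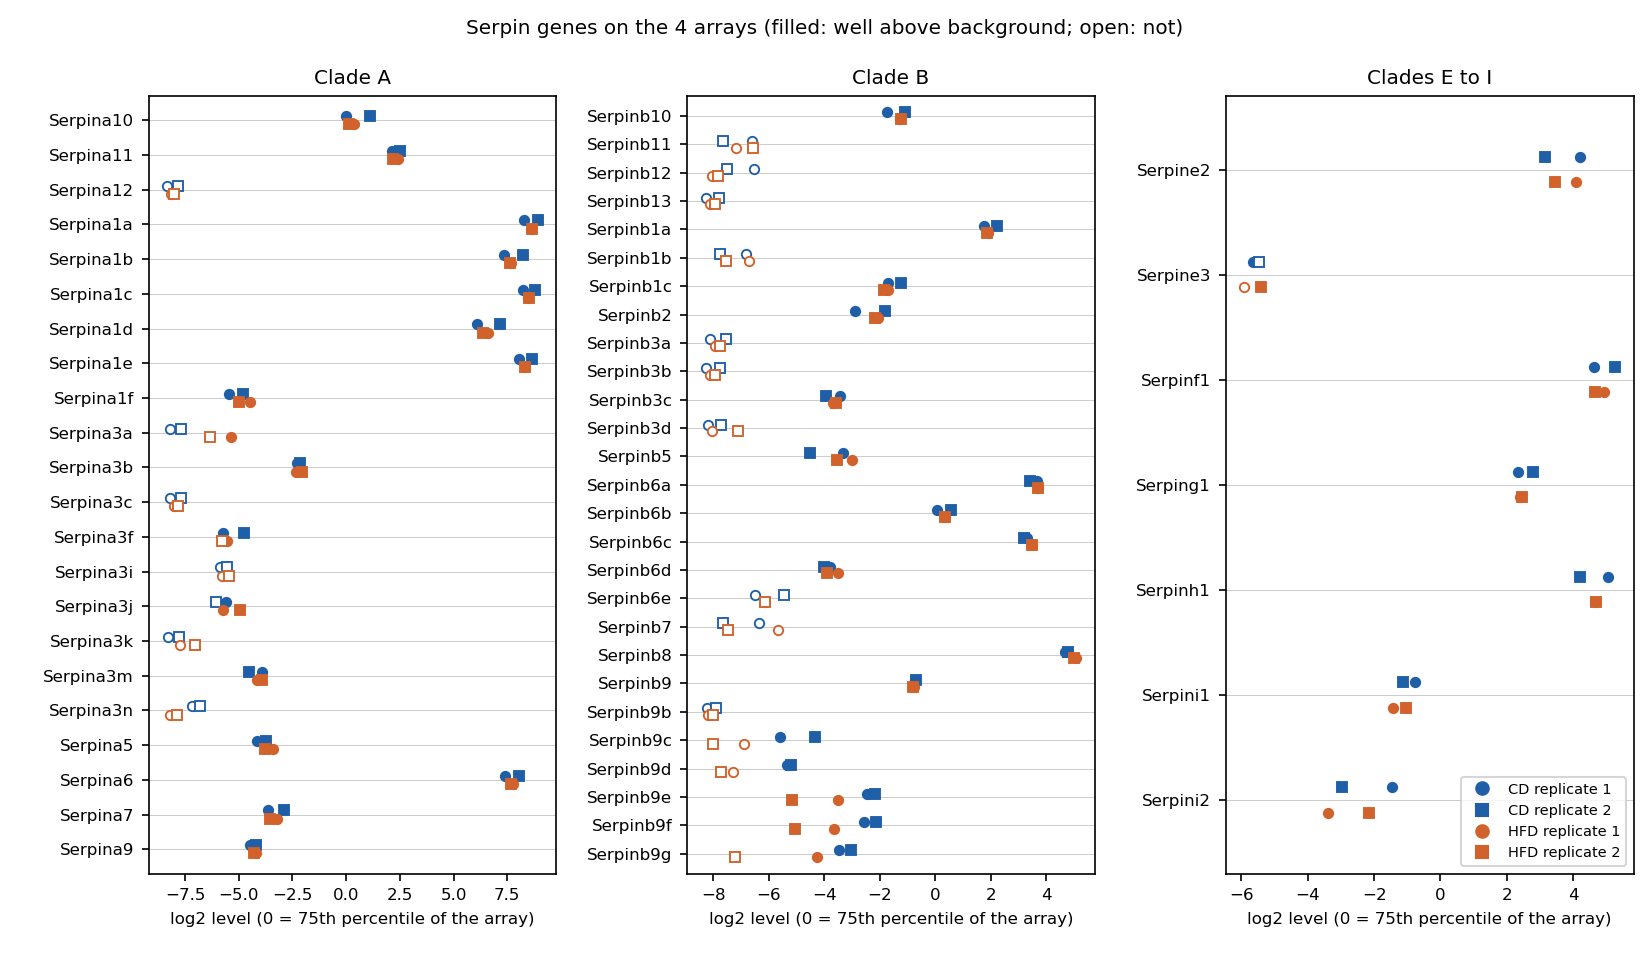
Log2 level of 56 of the 57 serpin genes on the 4 arrays (0 is the 75th percentile of the array), by clade, with CD in blue and HFD in orange, circles for replicate 1 and squares for replicate 2, filled where the probe was well above background. The HFD points of Serpinb9c to Serpinb9g lie to the left of their CD points, and Serpina3a is filled on HFD replicate 1 only.

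Clade A, the plasma serpins, showed no member past the test, and none of its 17 tested genes had a log2 fold change of 0.5 or more in either direction. Serpina1a was at 8.30 and 8.93 in CD and at 8.59 and 8.64 in HFD, a difference of 0.00 with a 95% interval of -0.70 to 0.70. Serpina1c was at 8.24 and 8.81 in CD and at 8.49 and 8.52 in HFD. Serpina1e was at 8.04 and 8.64 in CD and at 8.34 on both HFD arrays. For these alpha-1-antitrypsins, the HFD values lay between the CD values. Serpina1b and Serpina1d had log2 fold changes of -0.13 and -0.16, with intervals of -1.05 to 0.78 and -1.23 to 0.91. Serpina1f, known from the epididymis, was at -5.44 and -4.81 in CD and at -4.47 and -5.00 in HFD, with a log2 fold change of 0.39 and overlapping groups.

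The Serpina1 promoters are shown for a stretch they have in common, with GTTAAT, the letters of one arm of an HNF1 site, in capitals. HNF1 factors are known as activators of hepatocyte genes.
Serpina1a, chr12:103863620-103863739, minus strand: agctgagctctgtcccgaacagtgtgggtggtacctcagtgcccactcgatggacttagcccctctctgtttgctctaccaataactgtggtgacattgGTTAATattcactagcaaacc
Serpina1e, chr12:103956898-103957017, minus strand: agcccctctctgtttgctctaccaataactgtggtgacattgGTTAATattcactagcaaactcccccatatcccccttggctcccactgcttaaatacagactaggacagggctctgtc

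Over 250 bases, the promoters of Serpina1a to Serpina1d were 84.3% to 91.0% identical, and that of Serpina1e 58.0% to 64.2% identical to these. The letters GTTAAT ended 15 bases before the annotated start in Serpina1a and 72 bases before it in Serpina1e, within a stretch that both printed sequences share. The windows of these genes are thus shifted against each other, which lowers their identity, so no divergence of Serpina1e is read from it. They were present in all 5 of Serpina1a to Serpina1e and in 6.43% of all promoters of this length. Of the 48 serpin genes with a promoter, 11 held them, and of these Serpinb8 was the only clade B gene that was tested. A match of 6 letters names no bound factor.

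Serpina6, corticosteroid-binding globulin, had a log2 fold change of -0.01 with an interval of -0.74 to 0.71. Serpina7, thyroxine-binding globulin, had a log2 fold change of -0.11. Serpina10, the protein Z-dependent inhibitor of coagulation factor X, had one of -0.27. Serpina5, the protein C inhibitor, was at -4.17 and -3.75 in CD and at -3.41 and -3.79 in HFD, a log2 fold change of 0.36 with overlapping groups. Agt, or angiotensinogen, a member of the fold under another symbol, was at 2.88 and 3.54 in CD and at 3.32 and 3.09 in HFD, a difference of 0.00.

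Of 9 Serpina3 genes with a probe, which are relatives of antichymotrypsin, 5 were tested, and their log2 fold changes ran from -0.41 for Serpina3f to 0.49 for Serpina3j. Serpina3j was at -5.62 and -6.07 in CD and at -5.73 and -4.96 in HFD, with overlapping groups, and was not well above background on CD replicate 2. Serpina3b was at -2.27 and -2.15 in CD and at -2.34 and -2.07 in HFD. The 2 probes of Serpina3f gave opposite signs, -0.41 and 0.38, as did those of Serpina3i, 0.07 and -0.65, and neither gene is given a direction here. Serpina3a, which the study lists among its genes chosen on these arrays, was at -8.20 and -7.70 in CD and at -5.37 and -6.36 in HFD. Only HFD replicate 1 was well above background, so no fold is given, and the gene was not tested because of its CD signal. One of its other probes was well above background on HFD replicate 1 too, and the third on no array. All 7 fetal germ cell markers had a higher mean in HFD than in CD. In 6 of them both HFD arrays lay above both CD arrays, beside 22.9% of all genes tested, though only 3 of the 7 were tested. Only 1 of the 7, Ddx4, was well above background on all 4 arrays. Dazl, Mael, Dppa4, Tex101 and Sycp3 were so on no CD array, and these counts thus rest largely on signals near background. Of 3 tested, 1 rose past p and fold, beside 0.284% of all genes. Gonad and adrenal markers, with 2 of 9 tested, and kidney markers, with 1 of 6, also had genes that rose past both limits. The summed linear level of the germ cell markers was 0.120 to 0.138 in CD and 0.237 to 0.497 in HFD, with HFD replicate 1 the higher. The part of any of these lists in the Serpina3a values was not tested. Of the 7 germ cell markers, the study picked 3 on these arrays. It also picked Cyp11a1, 1 of the 2 gonad and adrenal genes that rose, and Cdh16, the 1 kidney gene that rose.

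The plasma serpins differed more between the 2 CD arrays than between the diets. Of the 17 clade A genes tested, 15 (88.2%) exceeded their CD replicate 1 level on CD replicate 2, with a median difference of 0.60, beside 55.3% of all genes and a median of 0.06. In 10 of the 17 (58.8%) both HFD arrays fell between the CD arrays, beside 39.6% of all genes. Hepatoblast markers moved the same way, with all 10 higher on CD replicate 2 by a median of 0.50. So did all 6 erythroid, 6 megakaryocyte and 9 granulocyte markers, by medians of 0.62, 0.93 and 0.68, and 5 of 6 macrophage markers (0.46). The 9 mesenchymal and stellate markers went the other way, with 1 of 9 higher on CD replicate 2 and a median of -0.91. Neuronal (-0.81), squamous epithelial (-0.88) and kidney markers (-0.67) also had negative medians. Before scaling, the 75th percentile was 10.07 log2 units on CD replicate 1 and 9.46 on CD replicate 2. With quantile normalization the SE of HFD minus CD for Serpina1a was 0.15, in place of 0.26. For Serpina7 it was 0.37, in place of 0.31. The parts of these cell types and of the scaling in the serpin values were not tested. Within replicate 1 the median of HFD minus CD over the 17 genes was 0.29, and within replicate 2 it was -0.29. HFD replicate 2 minus HFD replicate 1 had a median of -0.08, so this turn in sign restates the gap between the CD arrays.

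**Figure D4:**
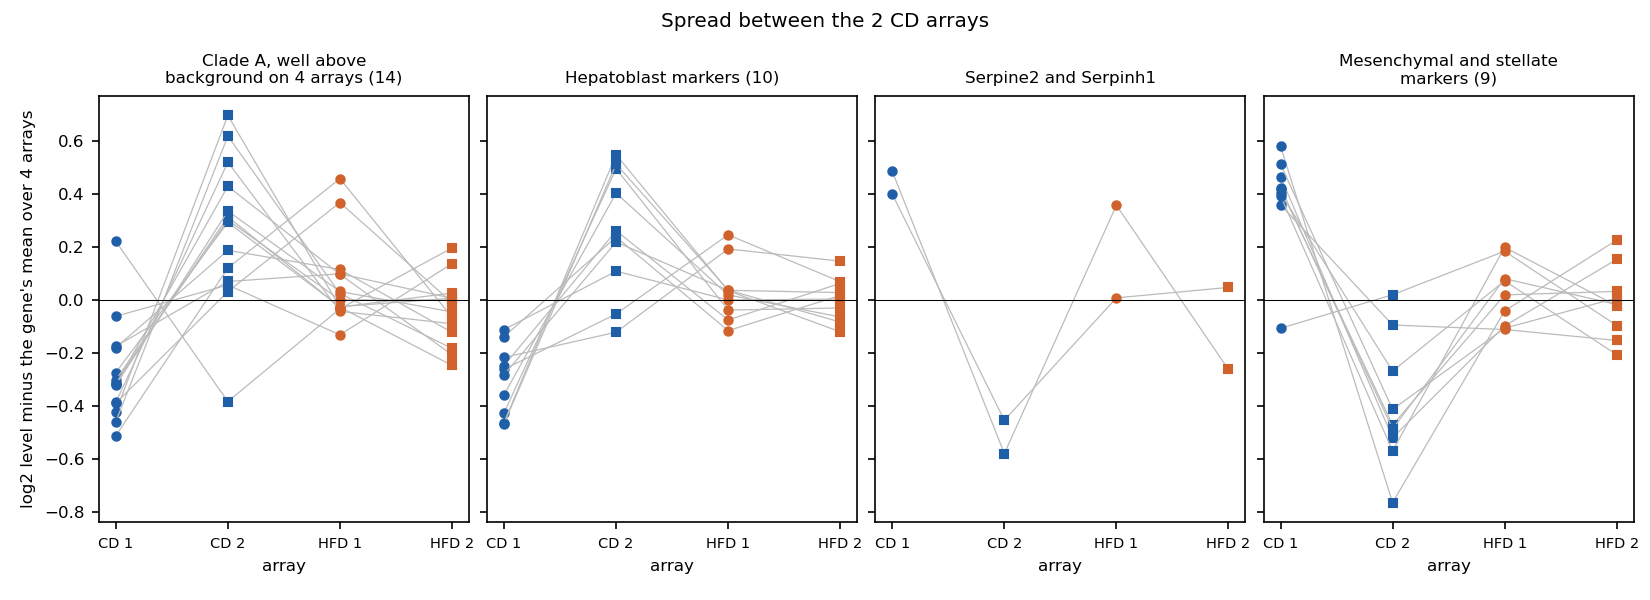
Log2 level of each gene minus its mean over the 4 arrays (one grey line per gene, CD in blue, HFD in orange), for the 14 clade A genes well above background on all arrays, 10 hepatoblast markers, Serpine2 with Serpinh1, and 9 mesenchymal and stellate markers. The CD arrays lie apart, in opposite directions for the left and right pairs of panels, and the HFD arrays lie mostly between them.

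Clades E to I held 8 genes, all tested, and 0 passed the test, with a median log2 fold change of -0.15. Serpine2, or protease nexin 1, was at 4.22 and 3.15 in CD and at 4.09 and 3.47 in HFD, with a log2 fold change of 0.09 and overlapping groups. Serpine3 was at -5.64 and -5.46 in CD and at -5.92 and -5.41 in HFD, and was well above background on 1 array of each group. Of 6 genes of plasminogen activation, among them Vtn, Lrp1, Plg and Plat, 0 passed the test, with a median log2 fold change of -0.13.

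**Figure D5:**
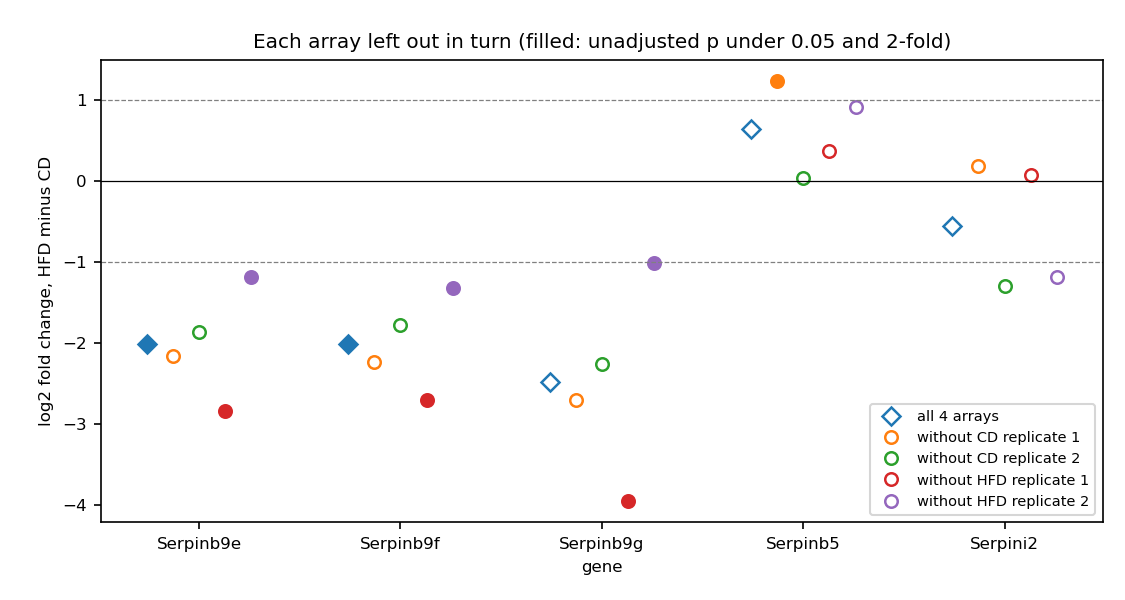
Log2 fold change, HFD minus CD, of 5 serpin genes with all 4 arrays (diamonds) and with each array left out in turn (circles), filled where the unadjusted limma p was under 0.05 and the change at least 2-fold. Serpinb9e, Serpinb9f and Serpinb9g stay below -1 throughout, Serpinb5 stays above 0, and Serpini2 changes sign.

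Serpinf1, the secreted pigment epithelium-derived factor, was at 4.64 and 5.26 in CD and at 4.92 and 4.67 in HFD, a log2 fold change of -0.16 with an interval of -0.89 to 0.58. Its 2 dimmer probes gave -0.13 and -0.12. Serping1, the C1 inhibitor, was at 2.34 and 2.79 in CD and at 2.39 and 2.45 in HFD, a log2 fold change of -0.14. The 5 genes of its known target proteases and their relatives, among them C1s1, Klkb1, C1ra and Masp2, had log2 fold changes between -0.13 and 0.08.

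Serpinh1, the collagen chaperone HSP47, was at 5.06 and 4.20 in CD and at 4.67 and 4.70 in HFD, a log2 fold change of 0.06 with an interval of -0.82 to 0.93. The HFD values fell between the CD values, and 0 of 6 genes of collagen and its folding passed the test. Like Serpine2, Serpinh1 was the lower on CD replicate 2, as were 8 of the 9 mesenchymal and stellate markers. Serpini1, or neuroserpin, an inhibitor of tissue plasminogen activator, was at -0.78 and -1.13 in CD and at -1.43 and -1.04 in HFD, a log2 fold change of -0.28 with overlapping groups. Of 6 neuronal markers, all had a negative log2 fold change, with a median of -0.67, and 0 passed p and fold. Their part in the Serpini1 values was not tested. Serpini2 was at -1.47 and -2.96 in CD and at -3.40 and -2.15 in HFD, a log2 fold change of -0.56 with an interval of -2.36 to 1.24.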

How the data were processed

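The authors labelled total RNA with Cy3, hybridised it to an Agilent 8 x 60K mouse array and read it with Agilent Feature Extraction 11.0.1.1. The deposited files hold, per spot, a processed intensity, corrected for background and spatial trend and with no scaling across arrays, the median brightness of spot and local background, and flags deposited as a score of 0 or 1. A series table of normalized signal, deposited beside them, was found here to be the intensity divided by 1 constant per array.

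Here the log2 intensity was averaged over the spots of a probe without outlier flags, and each array's 75th percentile was subtracted. Following the study's methods, a probe was dropped if any array had it under its 20th percentile, or if it had a CV of the log2 signal over 50% in both groups, and 41614 probes remained. HFD minus CD was tested with limma 3.58.1 in R 4.3.3 (lmFit, eBayes, no covariates), with p-values adjusted by Benjamini-Hochberg over all probes. An exact permutation test of 2 against 2 arrays cannot go below p = 0.333 and was not used. The 95% intervals and p-values cover the spread between arrays only, and 2 arrays per diet limit their precision. All arrays came from 1 slide and 1 scan. Steps were tested on simulated data.

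Probes were named by transcript through RefSeq genes of GRCm38.p6, which gave 32989 of 56605 probes a symbol. The coordinates printed are those of promoters on this build, and none is given for probes, as the array was designed on another. Promoter sequences came from a RefSeq table that held 48 of the 57 genes, and were aligned with Biopython 1.88. Values were prepared with Python 3.11.15, numpy 2.4.6 and pandas 2.3.3 and plotted with matplotlib 3.10.9.

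Per-array values are given for the 3 brightest genes of clades A and B, every gene of clades E to I well above background on an array, genes past p and fold, the 5 highest and 5 lowest changes and examples of the paralog clusters. Other genes come from marker and pathway lists, by mean signal or by passing p and fold. Gzmb was named for its role. A further gene under this rule enters the counts and medians but is not reported here. The genes and lists were chosen with earlier results of these data known. The alternatives were quantile normalization, normexp on the median brightness (the files used here hold no mean), the deposited table, a signal floor, other filters, the methods' t-test, the replicate block, averaging a gene's probes, and leaving out each array.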

Additional observations from a re-analysis of the deposited data

How the results depend on the processing

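The count of members lower in HFD, 2 in the report, was 5 of 50 tested in the deposited value table (0.78% of all genes), 5 of 57 with no filter on dim probes (0.878%), 4 of 40 where a probe had to be well above background on both arrays of 1 group or more (0.635%), and 0 of 41 by the methods' t-test (0.0927%). The added calls were Serpinb9c, Serpinb9d and Serpina3n, the last not well above background on any array. Serpinb9c and Serpinb9d met the rule of 1 group or more through CD alone, as their HFD signals were too dim for it. Genes let in this way are picked on the side where they are high, which favours a call as lower in HFD. Their calls under that rule are thus no separate check on their direction. The count of members higher in HFD, 0 in the report, was 1 in the deposited value table (0.303% of all genes) and with no filter on dim probes (0.564%), namely Serpina3a. Leaving out each array in turn also moved these counts and the count at an adjusted p under 0.05. A group then holds 1 array, which is assumed to vary like the other group, so these counts are not given. With arrays left out in turn, the median log2 fold change ran from -0.30 to 0.27 in clade A, from -0.19 to 0.074 in clade B and from -0.35 to -0.10 in clades E to I. The causes were not tested.

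With the replicate number as a block, 3 members were lower (0.78% of all genes) and 0 higher (0.48%). The numbers pair the samples in no label, and deviations of same-numbered arrays had a correlation of -0.11, so the crossed pairing was added after seeing the data: it called 3 members lower and 0 higher. All other counts and medians stayed within 1.5 times or within the spread between replicates. Slide could not be a block, as there was 1 slide. Signal over background limits Serpinb9c, Serpinb9d, Serpinb9g, Serpina3a, Serpina3f, Serpina3j and Serpine3, which were well above background on some of the 4 arrays and not on others.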
